A study of Rattus norvegicus with 9 samples.

Results

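The genes described here make, store, break down or sense serotonin in pancreatic islets of rats. The list held 9 genes, Tph1, Tph2, Ddc, Maoa, Maob, Slc18a1, Slc18a2, Htr2b and Htr3a. A gene counted as measured when the platform annotation gave it at least 1 probe set of its own, which held for 7 of the 9, out of 14217 genes with such a probe set. Tph1 and Tph2 were not analysed here. The other 7 genes had 10 probe sets, and where a gene had several, the brightest on average represents it. Islets of 5 obese Wistar rats fed a high-caloric cafeteria diet were compared with islets of 4 lean Wistar rats fed standard chow, for 30 days in each case. They were freed by collagenase, their RNA was hybridized to Affymetrix rat genome arrays, and each sample had 1 array. The labels name each sample as a rat, give no age or sex, and leave unsaid whether animals were pooled. The p-values therefore cover the differences among these 9 samples alone, which may be partly technical.

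Serotonin is made from tryptophan in 2 steps, a hydroxylation by tryptophan hydroxylase (Tph1 or Tph2) and a decarboxylation by aromatic L-amino acid decarboxylase (Ddc). Vesicular monoamine transporters (Slc18a1 and Slc18a2) load it into granules, and the monoamine oxidases (Maoa and Maob) of the outer mitochondrial membrane start its breakdown. Beta cells store serotonin beside insulin. In mice, Tph1 is induced in islets by lactogenic hormones during pregnancy, when the receptor Htr2b takes part in beta cell growth and the ion channel Htr3a in insulin secretion.

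None of the 7 measured genes passed the test between the diets. Ddc, Maoa, Maob, Slc18a1 and Htr2b had lower means in cafeteria islets, and Slc18a2 and Htr3a had higher ones. The log2 differences, cafeteria minus lean, lay between -0.21 for Slc18a1 and 0.14 for Htr3a, with a median of -0.056, beside a median of 0.0025 over all 14217 genes. By limma with Benjamini-Hochberg adjustment over 31042 probe sets, the adjusted p of the 7 genes lay between 0.844 and 0.971, and the threshold was 0.05. In this comparison 0 of 31042 probe sets passed, which is 0% of those tested. At an unadjusted p under 0.05 there were 1789 probe sets, or 5.76%, and 0 of the 7 serotonin genes. The 2 groups overlapped in all 7 genes, as they did in most probe sets, since only 2.00% of all probe sets showed no overlap. Together the 7 intervals of 95% confidence reached from 0.716-fold to 1.25-fold (cafeteria over lean) on the scale of the arrays. That scale compresses changes of dim probe sets, so for Slc18a1, Htr2b and Htr3a these intervals do not bound a change in RNA. The interval of Slc18a2 is no such bound either. Its probe set lay near the median in brightness, and the intervals of its dimmer probe sets, 1369131_at and 1369132_at, reached 1.39-fold and 1.42-fold.

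**Figure D1:**
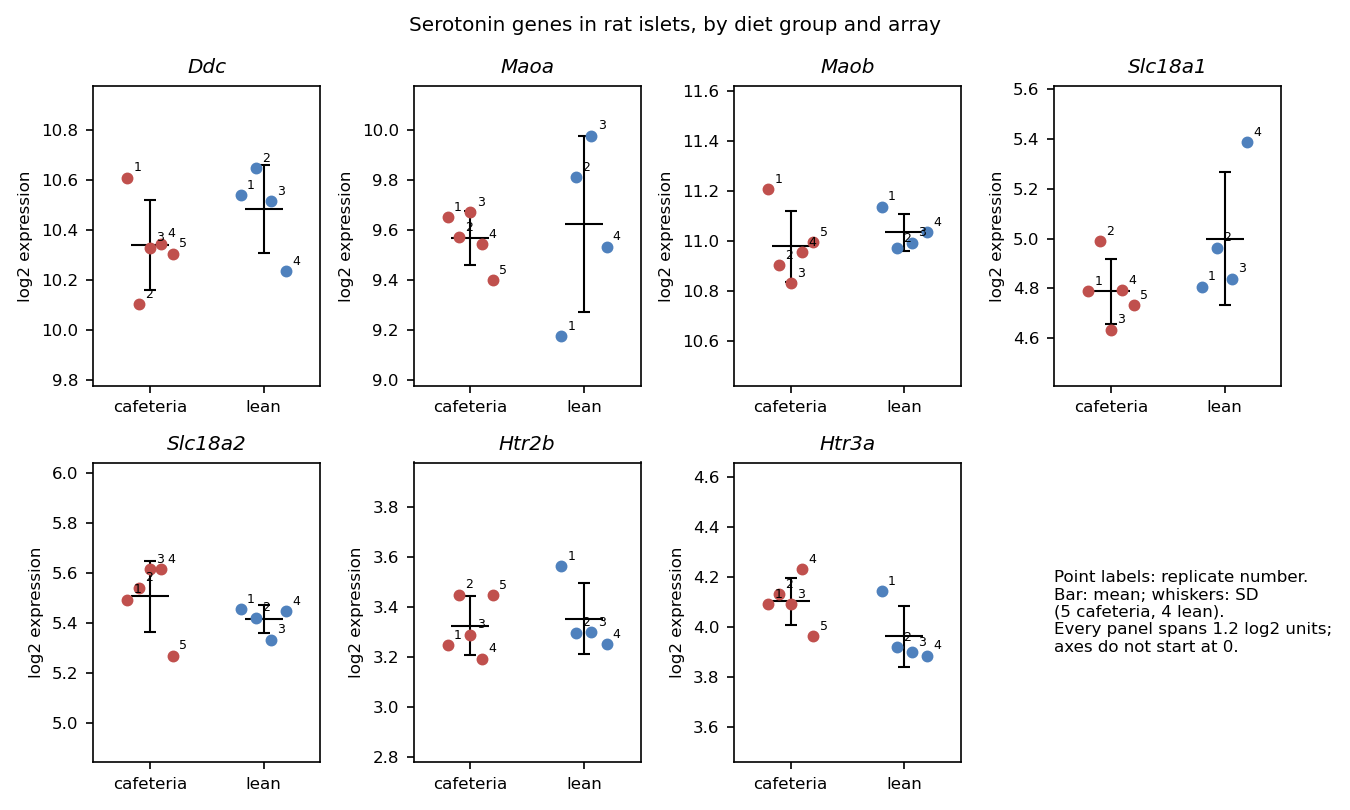
Log2 expression of the 7 measured serotonin genes on each array, with 5 cafeteria samples on the left and 4 lean samples on the right of each panel, numbered by replicate (bar, mean; whiskers, SD). The groups overlap in every panel, and Maoa and Slc18a1 have a wide spread among the lean samples.

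The arrays resembled each other, with correlations between 0.979 and 0.994, and their medians lay between 5.28 and 5.32. The tissue label was checked on 6 hormone genes. Ins1, Ins2, Iapp, Gcg, Sst and Ppy all had values above 12.3 on every array, among the brightest of the table. Other cells were present too. Markers of lymphocytes stood apart in lean replicate 3, whose mean deviation from the 9-array mean was 1.79 log2 over 7 markers, against -0.41 to -0.27 in cafeteria samples and -0.23 to 0.09 in the other lean samples. Markers of ductal cells were highest in lean replicate 1 (0.65), and those of acinar cells were lowest in cafeteria replicate 5 (-1.29). The other 4 cafeteria samples had acinar values of 0.32 to 0.70, against -0.81 to 0.36 in the lean samples, and 9 of 10 acinar markers had higher means in cafeteria islets (median difference 0.52). Lower means in cafeteria islets were found for all 7 lymphocyte markers (median difference -0.74) and all 6 alpha, delta and PP cell markers (-0.21). The same held for 7 of 8 macrophage markers (-0.19) and 6 of 7 endothelial markers (-0.13). Of the beta cell markers 3 were higher and 4 lower. Among them Ins1, Ins2 and Iapp lay near the top of the scale, whose highest value was 14.24, and a change there may not show. None of the markers of these cell types passed the test. In whole islets, fewer cells of a type and less RNA per cell cannot be told apart.

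Ddc, the decarboxylase that makes serotonin and also dopamine, was among the brightest members. Its probe set 1368064_a_at had log2 values of 10.61, 10.10, 10.33, 10.35 and 10.31 in the cafeteria samples, against 10.54, 10.65, 10.52 and 10.24 in the lean samples. Cafeteria replicate 2 was the lowest array, and cafeteria replicate 1 lay among the highest lean values. The difference was -0.15 (SE 0.11, 95% interval -0.39 to 0.10, limma adjusted p = 0.859). A dimmer probe set of the gene, 1375317_at, had values of 5.60, 5.77, 5.57, 5.65 and 5.50 in cafeteria islets and of 5.56, 5.79, 5.75 and 5.96 in lean islets. Its difference was also -0.15 (SE 0.091). The arrays did not rank alike in the 2 probe sets: lean replicate 4 was the highest array in the dimmer probe set and the second lowest in the brighter one. The RefSeq promoter table gives Ddc 3 start sites, and the values do not tell transcripts from different start sites apart.

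The genes of breakdown were bright as well. Maob, the oxidase known as type B, had 11.21, 10.90, 10.83, 10.956 and 10.996 in the cafeteria samples, against 11.14, 10.97, 10.99 and 11.04 in the lean samples. The groups overlapped, with cafeteria replicate 1 above every lean sample and 3 other cafeteria samples below every lean sample. The difference was -0.056 (SE 0.085, 95% interval -0.24 to 0.13). Its SD over the 9 arrays, 0.11, was the lowest among the 7 genes and below the median SD of all genes, 0.15.

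Maoa, the type A oxidase, which prefers serotonin as a substrate, had the highest SD of the 7 genes (0.23). It had 9.65, 9.57, 9.67, 9.54 and 9.40 in the cafeteria samples, against 9.18, 9.81, 9.98 and 9.53 in the lean samples. All 5 cafeteria values lay inside the range of the lean ones, which was set by lean replicate 1 at the low end and lean replicate 3 at the high end. The difference was -0.057 (SE 0.14, 95% interval -0.38 to 0.26), and it was -0.21 without lean replicate 1 and 0.061 without lean replicate 3, so no direction is given. Lean replicate 1 is the sample with the highest ductal markers and lean replicate 3 the one with the highest lymphocyte markers. Lean replicate 2, with the next highest ductal markers (0.42), had the Maoa value of 9.81. Lean replicate 1 also had the highest 3-prime minus 5-prime difference of control probe sets (1.80), a measure of RNA degradation. Cafeteria replicate 3, the next highest in this measure (1.74), had the highest Maoa value of the cafeteria samples, 9.67. With this measure as a covariate the diet difference of Maoa was -0.082. The part of these traits in the spread of Maoa was not tested. The suffix of the probe set 1370678_s_at marks probes that can match several transcripts.

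Maoa and Maob lie beside each other on the X chromosome on opposite strands, with 0 genes between them in the RefSeq annotation of the rat assembly GRCr8. In humans the promoters of both genes hold GC boxes, sites for factors of the Sp1 family. The 250 bases before the start in the RefSeq promoter table were searched on both strands for GGGCGG. Maoa had 4 matches and Maob had 2, none of them overlapping, and 30.5% of 33469 such windows of all genes held at least 1. Slc18a2 also had 2 matches, and it held the cAMP response element TGACGTCA, which 1.59% of the windows hold. These matches are letters in a window and were not measured as sites. The start used for Slc18a2 lies inside its annotated gene, which begins at chr1:268399815, and the response element lies inside that gene as well. The windows of Maoa and Maob lie outside their annotated genes. For each of these 3 genes, 30 bases around the match nearest the start are shown 5′ to 3′ on the strand of the gene, with the match in capitals, to compare the 2 oxidase genes and the transporter gene. The Maoa stretch is chrX:8681405-8681434 (minus strand), that of Maob is chrX:8490266-8490295 (plus strand) and that of Slc18a2 is chr1:268399958-268399987 (plus strand), all in GRCr8.
Maoa: ctgtcccaccctGGGCGGtcccccctttta
Maob: ctgtcgggctggGGGCGGgggctcgagggt
Slc18a2: agtgctatccgTGACGTCAgagccggactg

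The probe sets of the storage genes were less bright than those that stood for Ddc, Maoa and Maob. Slc18a1, the vesicular transporter also called VMAT1, had 4.79, 4.99, 4.64, 4.79 and 4.73 in the cafeteria samples, against 4.81, 4.96, 4.84 and 5.39 in the lean samples. Of the cafeteria samples, 4 lay below every lean sample, and replicate 2 lay above 3 of the lean samples. The difference of -0.21 (SE 0.12, 95% interval -0.48 to 0.060, limma adjusted p = 0.844) was the largest of the 7. It was -0.082 without lean replicate 4, the highest array. The mean of 4.88 was below the median of all probe sets, 5.29, and a difference between dim probe sets is compressed on this scale.

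Slc18a2, or VMAT2, is the vesicular transporter known from beta cells. Its brightest probe set, 1384933_at, had 5.49, 5.54, 5.61, 5.61 and 5.27 in the cafeteria samples, against 5.45, 5.42, 5.33 and 5.45 in the lean samples. Cafeteria replicates 1 to 4 lay above every lean sample and cafeteria replicate 5 below every one. The difference was 0.092 (SE 0.083, 95% interval -0.092 to 0.28, limma adjusted p = 0.873). It was 0.034 with the mean deviation of the acinar markers as a covariate.

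The other probe sets of Slc18a2 also had higher means in cafeteria islets but placed the arrays differently. Probe set 1369131_at had 4.40, 4.44, 5.02, 4.52 and 4.92 in the cafeteria samples, against 4.44, 4.48, 4.54 and 4.45 in the lean samples, a difference of 0.18 (SE 0.13). Here cafeteria replicates 3 and 5 stood above all other arrays. Probe set 1369132_at had 3.81, 3.89, 3.86, 3.78 and 4.36 in the cafeteria samples, against 3.77, 3.90, 3.77 and 3.46 in the lean samples, a difference of 0.22 (SE 0.13). Cafeteria replicate 5, the lowest array in the brightest probe set, was the highest array in this one. Markers of Schwann cells and neurons, cells around and within islets, had mean deviations of -0.13, 0.17, 0.11, 0.061 and 0.33 in cafeteria replicates 1 to 5 and of -0.26 to -0.017 in the lean samples. Of these 6 measured markers 5 had higher means under the cafeteria diet. Their part in the values of Slc18a2 was not tested.

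**Figure D2:**
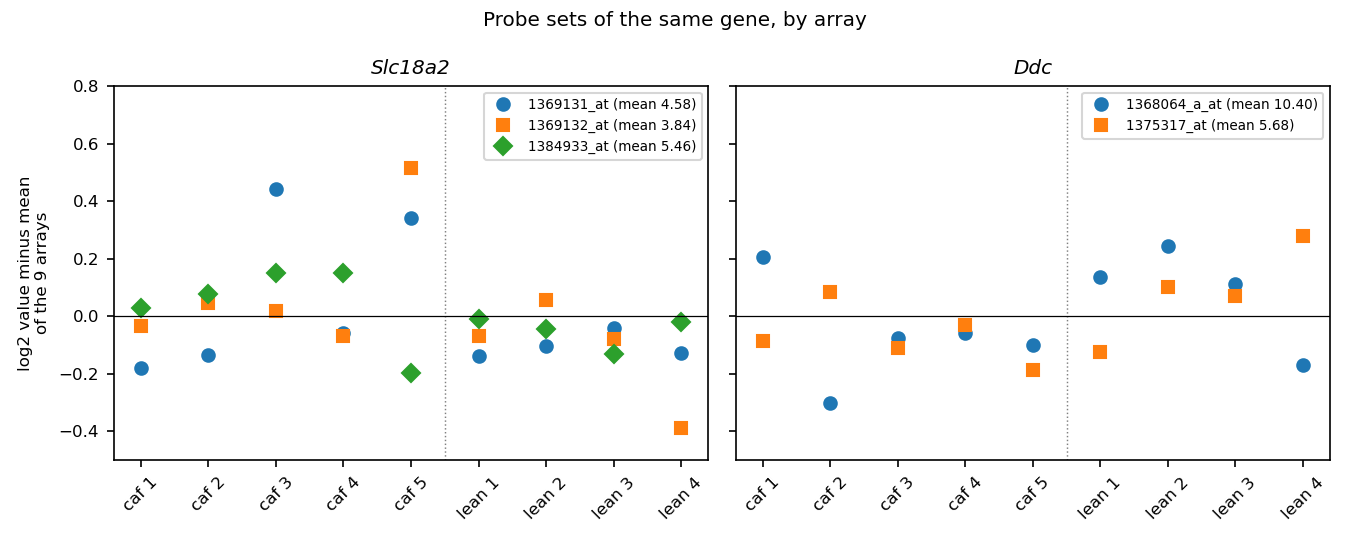
Log2 value minus the 9-array mean for the 3 probe sets of Slc18a2 (left) and the 2 of Ddc (right), by array, with cafeteria samples left of the dotted line and lean samples right of it. Cafeteria replicate 5 is highest in 1 Slc18a2 probe set and lowest in another, and lean replicate 4 is highest in 1 Ddc probe set and below the mean in the other.

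The receptor genes had values in the low part of the arrays. Htr3a, a subunit of the serotonin-gated ion channel, had 4.09, 4.13, 4.09, 4.23 and 3.96 in the cafeteria samples, against 4.14, 3.92, 3.90 and 3.88 in the lean samples. All 5 cafeteria values lay above 3 of the lean values, and lean replicate 1 lay above 4 of the cafeteria values. The difference was 0.14 (SE 0.081, 95% interval -0.039 to 0.32, limma adjusted p = 0.844), and 0.20 without lean replicate 1. Htr2b, a receptor coupled to Gq proteins, had 3.25, 3.45, 3.29, 3.19 and 3.45 in the cafeteria samples, against 3.56, 3.30, 3.30 and 3.25 in the lean samples. Only 2.44% of probe sets had a mean as low as that of Htr2b, and 17.0% one as low as that of Htr3a. For Htr2b the difference of -0.027 (SE 0.090, 95% interval -0.22 to 0.17) had the other sign without lean replicate 1 (0.043) or without cafeteria replicate 4 (0.0062), so no direction is given. At these levels the values do not show whether either receptor was expressed.

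The probe sets that stood for Ddc, Maoa and Maob ranked above 96.1% of all probe sets in brightness. Those of Slc18a1, Htr3a and Htr2b lay below the median, and that of Slc18a2 lay just above it. Brightness depends on the probes as well as on the RNA, so this order ranks probe sets and not amounts of RNA.

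For the 3 genes with the largest SD over the arrays, the most similar genes were sought among the genes brighter than the median probe set. Maoa was most like Armcx5 (Pearson r = 0.972 over 9 arrays) and Ugcg (r = 0.960). Another probe set of Armcx5 had a difference of the opposite sign. Slc18a1 was most like Abi3 (r = 0.952) and Gatad2b (r = 0.938), and Ddc was most like C14h4orf19 (r = 0.927) and Map2k1 (r = 0.925). These are the highest of many correlations over few arrays and describe likeness alone, with no test.

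Around the 7 genes, 7 lists of related genes held 57 entries, of which 50 were measured. Of these, 27 had higher and 23 lower means in cafeteria islets, with a median difference of 0.0050, and 0 passed the test in either direction. At an unadjusted p under 0.05 there were 3 of 50, Ghr, Aldh2 and Htr1f, a share near the 5.76% of all probe sets.

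Among the other serotonin receptors and the reuptake transporter Slc6a4, 7 of 13 were higher and 6 lower, with a median of 0.0029, and all 13 were dimmer than the median probe set. Htr1f, a receptor coupled to Gi proteins, had 4.06, 4.24, 4.28, 4.19 and 4.22 in the cafeteria samples, against 3.99, 3.94, 3.99 and 3.96 in the lean samples. The groups did not overlap, and the difference was 0.23 (SE 0.066, unadjusted p = 0.00565, limma adjusted p = 0.844), at a level where 18.8% of probe sets were as low or lower. Htr1d, a related receptor, differed by 0.15 (SE 0.075).

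Tetrahydrobiopterin is the cofactor of tryptophan hydroxylase. Of 5 measured genes of its synthesis and recycling 2 were higher and 3 lower, with a median of -0.023. Gch1, the first enzyme of its synthesis, averaged 8.85 ± 0.21 in cafeteria islets (SD, n = 5) and 8.75 ± 0.18 in lean islets (SD, n = 4), a difference of 0.098 (SE 0.12). Qdpr, which recycles it, averaged 9.64 ± 0.20 in cafeteria islets (SD, n = 5) and 9.69 ± 0.12 in lean islets (SD, n = 4), a difference of -0.057 (SE 0.11).

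Among 4 genes for the transport of tryptophan and other large amino acids, 3 were lower and 1 higher, with a median of -0.21. Slc7a5, the light chain of the main carrier, had 9.32, 8.80, 8.42, 9.15 and 9.10 in cafeteria samples, against 8.80, 9.80, 9.62 and 9.10 in lean samples, a difference of -0.37 (SE 0.23). Cafeteria replicate 3 was the lowest array, and lean replicates 2 and 3 were the highest. Its partner Slc3a2 differed by -0.079 (SE 0.069).

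On the kynurenine route, which takes tryptophan away from serotonin, 6 of 8 genes were higher and 2 lower, with a median of 0.055. Only 1 of the 8 was brighter than the median probe set. Afmid, which acts after the first oxidation, differed by 0.16 (SE 0.10) and the dioxygenase Tdo2 by 0.071 (SE 0.072). Only 4.53% of probe sets had a mean as low as that of Tdo2.

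Of 8 genes for further fates of serotonin 6 were higher and 2 lower, with a median of 0.040. Only 2 of the 8 were brighter than the median probe set. Aldh2, the mitochondrial aldehyde dehydrogenase that oxidizes the aldehyde made by monoamine oxidases, had 6.08, 5.80, 5.65, 5.69 and 5.71 in the cafeteria samples, against 6.67, 6.39, 6.16 and 5.99 in the lean samples. Cafeteria replicate 1 lay above lean replicate 4, and the other 4 cafeteria samples lay below every lean sample. The difference was -0.52 (SE 0.14, unadjusted p = 0.00375, limma adjusted p = 0.844), and the gene ranked 56 among 14217 by p. The organic cation transporter Slc22a2 differed by 0.10 (SE 0.078), at a level where 14.6% of probe sets were as low or lower.

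Catecholamine genes, which share Ddc and the oxidases with serotonin, were higher in 3 of the 5 that were measured and lower in 2, and their median was 0.027. All 5 were dimmer than the median probe set. Dbh, which makes noradrenaline, differed by 0.093 (SE 0.089), and Pnmt, which makes adrenaline, by -0.063 (SE 0.065). Only 6.38% of probe sets had a mean as low as that of Pnmt.

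In prolactin and growth hormone signalling 2 of 7 genes were higher and 5 lower, with a median of -0.13. The receptor gene Ghr had 9.30, 9.12, 9.22, 9.25 and 9.33 in the cafeteria samples, against 8.95, 8.83, 8.92 and 8.54 in the lean samples. The groups did not overlap. The difference was 0.43 (SE 0.093, limma unadjusted p = 0.000742, limma adjusted p = 0.844), and the gene ranked 10 among 14217 by p. A dimmer probe set of Ghr differed by 0.11 (SE 0.23). Socs2, an inhibitor of this signalling, differed by -0.33 (SE 0.20).

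**Figure D3:**
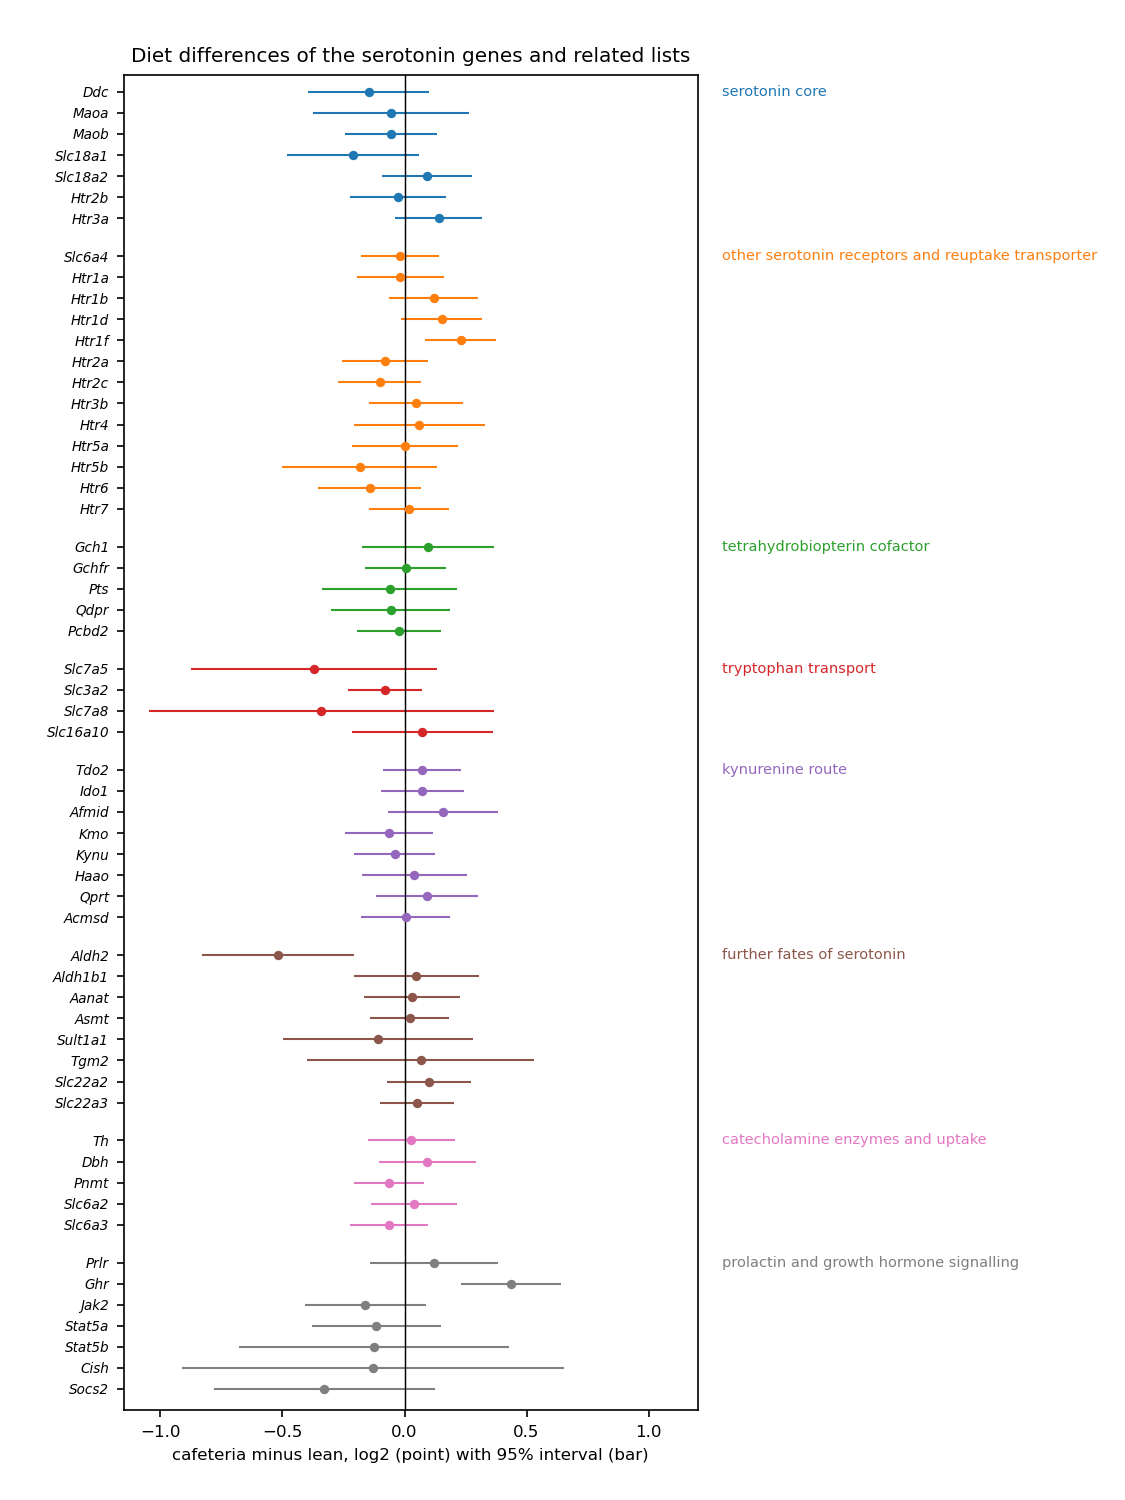
Log2 difference, cafeteria minus lean, with its 95% interval from limma for the 7 serotonin genes (top) and the 50 measured genes of the related lists. All 7 serotonin intervals include 0, and only those of Htr1f, Aldh2 and Ghr among the other genes do not, without adjustment for the number of genes.

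Other cell types that hold serotonin were read from their own markers. Mast cell markers had means of 4.46 to 4.66 in cafeteria samples and of 4.47 to 4.59 in lean samples over 9 measured genes, all 9 dimmer than the median probe set. Platelet markers had means of 4.84 to 5.09 in cafeteria samples and of 4.89 to 5.0 in lean samples over 4 genes. Only 1 of these 4 was brighter than the median probe set. The groups overlapped in both lists.

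With single samples left out, Ddc, Maob and Slc18a1 kept lower means and Slc18a2 and Htr3a higher means in cafeteria islets in all 9 cases. Ddc differed by -0.23 to -0.088, Maob by -0.11 to -0.019, Slc18a1 by -0.27 to -0.082, Slc18a2 by 0.065 to 0.15 and Htr3a by 0.11 to 0.20. None of these 5 genes passed the test in any of these cases.

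**Figure D4:**
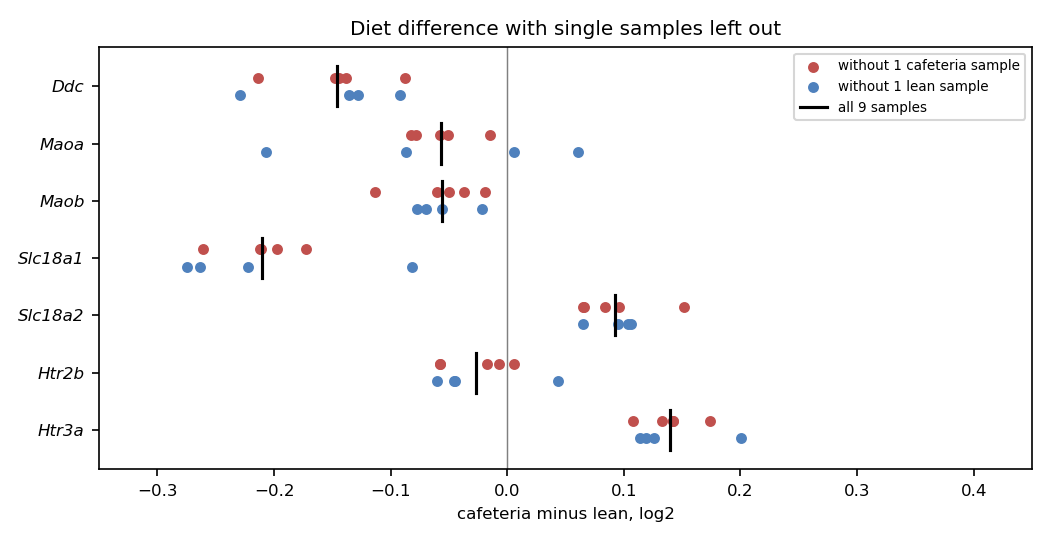
Log2 difference, cafeteria minus lean, of each serotonin gene with all 9 samples (black line), without 1 cafeteria sample (red) and without 1 lean sample (blue). The points of Maoa and Htr2b fall on both sides of 0, and those of the other 5 genes on 1 side.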

How the data were processed

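The authors deposited log2 expression values per probe set, and per the submitters' processing notes the tools were RMA, affy 2.0.1 and R 2.7.0, whose roles are not given there. RMA equalizes the arrays' distributions, which removes a shift shared by most genes, and gives no detection call. The deposited log2 values of 9 arrays, 5 cafeteria and 4 lean, were used as they stand, without 57 control probe sets. Gene names came from the platform annotation (20826 single-gene probe sets). The test was limma's moderated test (version 3.58.1, under R 4.3.3) with no covariate, two-sided, adjusted over 31042 probe sets, and it was tested on simulated data. Differences are cafeteria minus lean, with the moderated standard error (SE). The number of arrays limits the precision. A list score per array is the mean deviation of its members from their 9-array means. The members and lists were chosen with earlier results of these data known. The rule named all members, 6 hormone genes, the 2 genes with the smallest p of each related list and the 2 genes most like each of the 3 most variable members. Alternatives were median centring, repeated quantile normalization, brighter probe sets, a variance trend, array weights, RNA quality or the acinar score as a covariate, a looser threshold, averaged probe sets and left-out samples. Promoter windows came from RefSeq (GRCr8), where 5 of the 7 measured genes matched. Slc18a1 and Htr3a had none.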

Additional observations from a re-analysis of the deposited data

Results flagged for a closer look

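Among 72 groups of values checked (36 probe sets in 2 diet groups), 3 held a sample far from the others of its group. Chance gives such a gap in about 1 in 20 groups. In the dimmest probe set of Slc18a2 (1369132_at), cafeteria replicate 5 had 4.36, and the nearest cafeteria sample had 3.89. In Htr2b, lean replicate 1 had 3.56, against 3.30 in the nearest lean sample. In Htr3a, lean replicate 1 had 4.14, against 3.92 in the nearest lean sample. All 3 probe sets were dim. Lean replicate 1 had the highest 3-prime minus 5-prime difference of the actin and Gapdh control probe sets (1.80), a measure of RNA degradation, and cafeteria replicate 5 had 1.73. Cafeteria replicate 3 had 1.74 in this measure, and its value in the dimmest probe set of Slc18a2, 3.86, was not far from the others. The range was 1.21 to 1.74 in cafeteria samples and 1.42 to 1.80 in lean samples. With this measure as a covariate the diet difference of Htr2b was -0.0038 in place of -0.027, and that of Htr3a was 0.14 with and without it. For this probe set of Slc18a2 its part was not tested.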

How the results depend on the processing

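No probe set passed an adjusted p of 0.05 (limma) under any alternative, and 0 passed 0.10 with all samples; the smallest adjusted p was 0.0578, without lean replicate 2, and 0.844 with all samples. At an unadjusted p under 0.05 the count of 1789 became 1235 to 2750 with single samples left out, 3413 with the RNA quality measure as a covariate and 2675 with weighted arrays, and the cause was not tested. The brighter probe sets alone gave 899 of 15521 tested. With single samples left out Maoa differed by -0.21 to 0.061 and Htr2b by -0.060 to 0.043. Without lean replicates 1 and 3, left out after the data were seen, Htr2b differed by 0.051 and Slc18a1 by -0.39 (unadjusted p = 0.0205, limma adjusted p = 0.906). In the other alternatives no serotonin gene changed its sign, but Slc18a1, Htr2b and Htr3a had no value among the brighter probe sets. Htr3a also had an unadjusted p under 0.05 with array weights (limma adjusted p = 0.559) and without lean replicate 1 (0.560), and Ddc with the mean of its probe sets (0.695). With averaged probe sets Slc18a2 differed by 0.16, and with the acinar score as a covariate by 0.034. The median difference of all probe sets was 0.017 with median centring and 0.0079 without it. No paired analysis was possible because the labels give the samples of the 2 groups no shared numbers.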
